A study of Mus musculus with 9 samples.

Results

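The matrix metalloproteinase (MMP) family and its tissue inhibitors (TIMPs) were examined in the lungs of mice given IL-33 with or without an inhibitor of MyD88. The genes were the 10 rows of the deposited table whose gene symbol is Mmp2, Mmp3, Mmp8, Mmp9, Mmp12, Mmp14, Mmp19, Timp1, Timp2 or Timp3, out of 34638 genes in all, so 7 are proteases and 3 are inhibitors. Each symbol matched a single row. All 10 genes had a mean FPKM of at least 0.5 over the 9 mice and were tested in every comparison. FPKM is the read count of a gene divided by its length and by the size of the library, so levels of different genes can be set side by side. The order of the genes and their sums depend on the length used for each gene, which was not checked.

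MMPs are zinc-dependent enzymes that are made as inactive precursors and, once activated, cut proteins of the extracellular matrix and of the cell surface. TIMPs bind the active site of these enzymes and block it, so the balance of both sides sets how much matrix is degraded. In the lung they are known from airway inflammation and remodelling, where macrophages, neutrophils, fibroblasts and epithelial cells each make a different set.

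Lung RNA came from 9 wild-type C57BL/6 mice in 3 groups of 3. The control group (CON) was given phosphate-buffered saline. The IL-33 group was given 0.5 µg of recombinant mouse IL-33, a cytokine of the IL-1 family, into the trachea on days 0, 1, 2 and 3. The IL-33+LM8 group had the same instillations, each preceded by an intraperitoneal dose of 10 mg/kg of LM8, which the series describes as a MyD88 inhibitor; MyD88 is the adaptor through which the IL-33 receptor and most Toll-like receptors signal. The study's methods give female mice of 6 to 8 weeks and lung collection on day 4 for the CON and IL-33 groups, and do not describe the LM8 group, so its age, sex and collection day are not stated. No group received LM8 without IL-33, so an effect of LM8 alone cannot be told apart from its effect on the IL-33 response. IL-33+LM8 mice also shared the injection itself, and no vehicle injection of the other mice is stated.

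Total counts ranged from 61767006 to 73869252 in CON, from 53877663 to 66029783 in IL-33 and from 59753648 to 90607218 in IL-33+LM8 mice. The labels give separate mice, and every p-value below measures the spread between them. Within each group the mouse with the largest total (CON replicate 3, IL-33 replicate 1 and IL-33+LM8 replicate 3) deviated from its group mean in a similar way, with correlations across genes of 0.65 to 0.67 between these mice. Genes are not independent replicates, and the part of depth or of another shared trait in single results was not tested. The genes Plg and Serpinf2, given further on, had far lower counts in these mice than in the others. The tissue was checked with marker genes. Secretory and alveolar epithelium were abundant in all mice, with Scgb1a1 the most abundant marker (mean FPKM 15818), and the 2 thymus markers measured, Rag1 and Dntt, summed to at most 0.821 FPKM in any mouse. Heart muscle markers differed between groups, with a summed FPKM of 148 ± 2.91 (SD, n = 3) in CON, 35.7 ± 9.81 in IL-33 and 57.8 ± 18.6 in IL-33+LM8 mice, which is a difference in the tissue taken along or in its share of the RNA that these data cannot tell apart.

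In CON lungs 2 of the 3 inhibitors stood far above the proteases. Timp3 (mean FPKM 152) and Timp2 (135) led, and their mice overlapped. Mmp2 (32.4), Mmp3 (16.7), Mmp14 (9.63), Mmp19 (6.95), Timp1 (2.88) and Mmp9 (2.05) followed without overlap between neighbours, and Mmp8 (1.07) and Mmp12 (1.00) came last and overlapped each other. In IL-33 lungs Timp1 (119.8) had the highest mean, followed by Mmp12 (100.4), Timp2 (94.1) and Timp3 (85.0), and the mice of Timp2 overlapped with those of each of the other 3. Mmp8 (6.24) and Mmp9 (6.22) were lowest and overlapped. In IL-33+LM8 lungs Timp3 (127) had the highest mean again, Timp2 (91.7) and Timp1 (90.5) overlapped, Timp1 spanned 45.1 to 141 and also overlapped Timp3, and Mmp8 (37.9) was the most abundant protease. From Mmp2 (24.7) through Mmp9 (22.7) and Mmp3 (22.7) to Mmp12 (18.6), neighbours overlapped, as did Mmp14 (10.7) and Mmp19 (9.51) at the lower end.

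**Figure D1:**
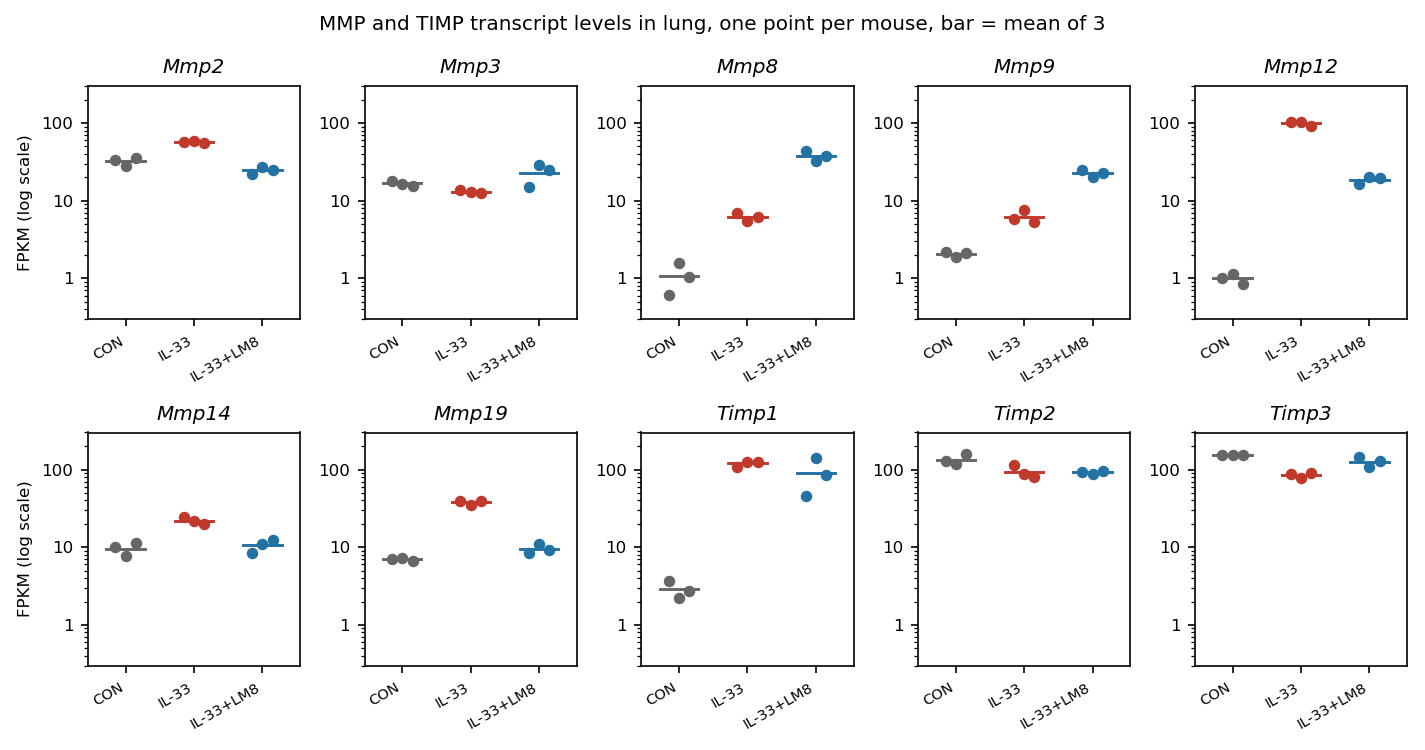
FPKM of the 10 genes on a log axis, with a point for each mouse and a bar for the mean of 3 mice in the CON, IL-33 and IL-33+LM8 groups. Mmp12 lies near 1 FPKM in CON, near 100.4 in IL-33 and near 18.6 in IL-33+LM8 mice, while Mmp8 and Mmp9 are highest in IL-33+LM8 mice.

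The summed FPKM of the 7 proteases was 69.8 ± 4.96 (SD, n = 3) in CON, 244 ± 10.7 in IL-33 and 147 ± 6.97 in IL-33+LM8 mice. That of the 3 inhibitors was 289.6 ± 19.3, 299 ± 12.2 and 309 ± 26.8 in the same order, so the inhibitor sum moved little while its make-up shifted. Timp1 was 0.995% ± 0.268 of the inhibitor sum in CON, 40.2% ± 4.57 in IL-33 and 28.5% ± 12.96 in IL-33+LM8 mice. Mmp2 was the largest part of the protease sum in CON (46.3% ± 2.42), Mmp12 in IL-33 (41.1% ± 1.20) and Mmp8 in IL-33+LM8 mice (26.0% ± 4.92). These sums are descriptions of transcript levels with no test, and they say nothing of protein or of enzyme activity.

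The comparison of IL-33 with CON addresses what the cytokine does in the lung. Of the 10 genes, 6 rose: Mmp12 and Timp1 by far the most, then Mmp8, Mmp19, Mmp9 and Mmp14. Here a called gene is one that passed edgeR's quasi-likelihood test at an adjusted p under 0.05 (Benjamini-Hochberg, over all genes tested) and changed by at least 1 on the log2 scale. None of the 10 was called lower. Over all 16831 genes tested, 1815 were called higher (10.8%) and 1050 lower (6.24%); limma on log2(FPKM + 1) called 1281 higher and 460 lower. With no minimum fold change, all 10 passed, 7 higher and 3 lower (Mmp3, Timp2 and Timp3), where 27.4% of all genes tested passed higher and 27.2% lower. The adjusted p reached 0.16 for Mmp3 and 0.093 for Timp2 over the alternatives, so these did not pass in every fit. The FPKM of the 2 groups did not overlap in any of the 10 genes, and in 63.4% of all genes tested. The median log2 fold change of the 10 was 1.39, against -0.01 for all genes tested.

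The comparison of IL-33+LM8 with IL-33 addresses what differs when the MyD88 inhibitor is given with IL-33. The 10 genes split. Mmp12, Mmp19, Mmp2 and Mmp14 fell and Mmp8 and Mmp9 rose, and the 3 inhibitors and Mmp3 were not called. Among all 16831 genes tested, 245 were called higher (1.46%) and 662 lower (3.93%); limma on log2(FPKM + 1) called 91 higher and 348 lower. With no minimum fold change 4 of the 10 were higher and 4 lower, the additions being Mmp3 and Timp3 on the higher side, where 12.6% of all genes tested were higher and 13.9% lower. The groups did not overlap in 8 of the 10, all but Timp1 and Timp2, and in 43.2% of all genes tested. The median log2 fold change of the 10 was -0.22, against -0.01 for all genes tested.

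The comparison of IL-33+LM8 with CON shows what distance from control lungs was left in inhibitor-treated mice. Mmp8, Timp1, Mmp12 and Mmp9 were called higher, and none of the 10 lower. Of 16829 genes tested, 988 were called higher (5.87%) and 245 lower (1.46%); limma on log2(FPKM + 1) called 508 higher and 80 lower. With no minimum fold change 5 of the 10 were higher, with Mmp19 added, and 2 lower, Mmp2 and Timp2, where 16.3% of all genes tested were higher and 13.4% lower. Over the alternatives the adjusted p reached 0.12 for Mmp2 and 0.075 for Mmp19, which thus passed in some fits only. The groups did not overlap in 8 of the 10, all but Mmp3 and Mmp14, and in 47.3% of all genes tested. The 10 genes had a median log2 fold change of 0.46, against 0.00 for all genes tested. The 3 comparisons share mice, so they are not independent of each other and their values are given side by side.

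**Figure D2:**
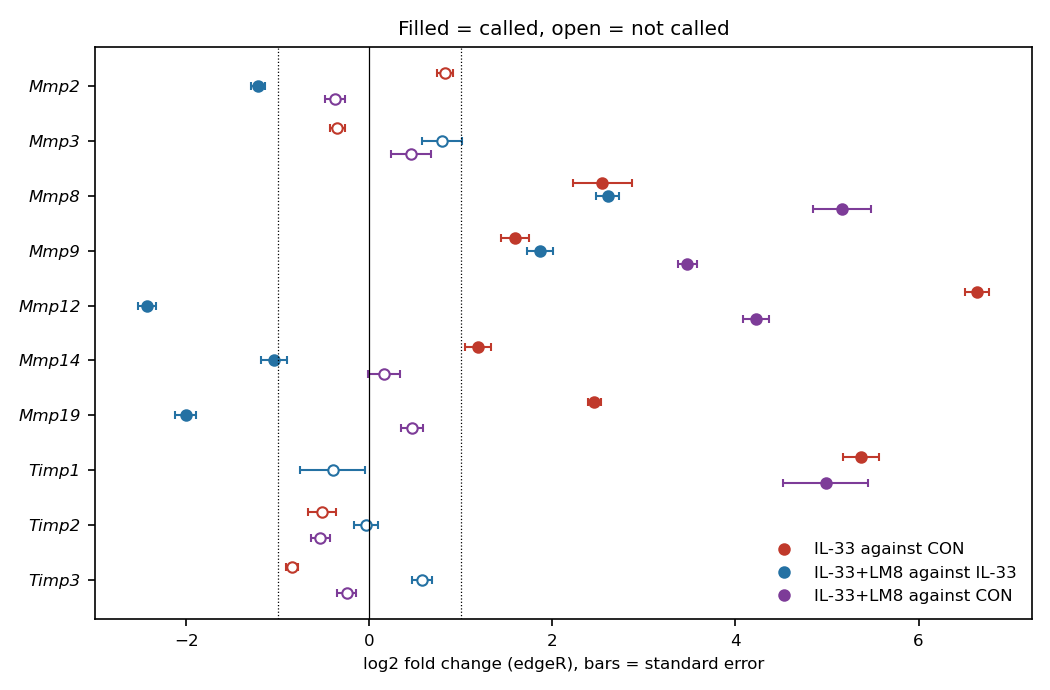
log2 fold changes of the 10 genes from edgeR in the 3 comparisons, with bars of 1 standard error, filled points for called genes and open points for the others; dotted lines mark a log2 fold change of 1 in either direction. Mmp12, Mmp14 and Mmp19 are called on opposite sides of 0 in IL-33 against CON as well as for IL-33+LM8 against IL-33, and Mmp8 and Mmp9 on the higher side in all 3.

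Mmp12 (macrophage elastase, which degrades elastin and is made mainly by macrophages) had the largest log2 fold change of the 10 genes in IL-33 against CON. Its FPKM was 1.03, 1.14 and 0.847 in the CON mice, 104, 104 and 92.6 in the IL-33 mice and 16.3, 20.1 and 19.4 in the IL-33+LM8 mice. The 3 groups lay fully apart, with the inhibitor-treated lungs between the others. The log2 fold change was 6.64 (SE 0.13, edgeR adjusted p = 5e-07) in IL-33 against CON. With LM8 the level was 5.40-fold lower than with IL-33 alone, a log2 fold change of -2.43 (SE 0.10, edgeR adjusted p = 3.3e-05). It was still 18.5-fold above CON (log2 fold change 4.22, SE 0.14, edgeR adjusted p = 9.3e-06). The counts behind these levels ran from 472 in a CON mouse to 51503 in an IL-33 mouse.

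Mmp19, a secreted protease that cuts basement membrane proteins, went the same way at a smaller size. Its FPKM was 6.97, 7.31 and 6.58 in CON, 39.9, 35.5 and 39.4 in IL-33 and 8.33, 11.1 and 9.11 in IL-33+LM8 mice. All inhibitor-treated mice lay above the highest CON mouse and far below the lowest IL-33 mouse. The gene rose with IL-33 by a log2 fold change of 2.46 (SE 0.07, edgeR adjusted p = 1e-06) and with LM8 it fell by 2.01 on the log2 scale (SE 0.12, edgeR adjusted p = 7.4e-05). Against CON the log2 fold change in IL-33+LM8 mice was 0.47 (SE 0.12, edgeR adjusted p = 0.026), under the minimum for a call. Mmp19 overlaps Tmem198b on the opposite strand, and 24.7% of the stretches of 50 bases in its GENCODE M21 transcripts also occur in Tmem198b or Gm47093. Whether the counting used strand is not given in the sources used here, so reads of the overlap may be counted for either gene. The mean FPKM of Tmem198b was 4.999 in CON, 5.37 in IL-33 and 4.92 in IL-33+LM8 mice. The part of the overlap in the level of Mmp19 was not tested.

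Of 6 markers of interstitial macrophages and monocytes, 5 rose with IL-33 and 3 fell with LM8. Cx3cr1 went the other way and was not called, at 2.36 ± 0.290 FPKM in CON, 1.51 ± 0.152 in IL-33 and 2.31 ± 0.564 in IL-33+LM8 mice. The summed FPKM of all 6 was 63.9, 70.8 and 60.1 in CON, 419.99, 427 and 402 in IL-33 and 178, 192 and 176 in IL-33+LM8 mice, with C1qb the most abundant (mean FPKM 94.6). Alveolar macrophage markers were divided. Of 5, 2 rose and 2 fell with IL-33, and with LM8 2 rose and 2 fell. Their summed FPKM was 295, 324 and 292 in CON, 4452, 4754 and 4156 in IL-33 and 1879.9, 2213 and 2025 in IL-33+LM8 mice, and it rested on Chil3 (mean FPKM 2169), a chitinase-like gene that macrophages switch on in type 2 inflammation. Marco, a scavenger receptor of resident alveolar macrophages, went from 7.41 ± 1.37 in CON to 2.40 ± 0.478 in IL-33 and 5.74 ± 0.624 in IL-33+LM8 mice. In bulk tissue, more cells of a type and more RNA per cell cannot be told apart, and the part of these cells in the levels of Mmp12 and Mmp19 was not tested.

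The genes whose pattern over the 9 mice lay closest to these proteases were sought among 14674 genes, by the root mean square difference of centred log2(FPKM + 1). Among those of Mmp12 were Alox15 (difference 0.26) and Ccl8 (0.46). Alox15, a lipoxygenase, went from 0.504 ± 0.157 FPKM in CON to 66.0 ± 1.24 in IL-33 and 17.5 ± 1.25 in IL-33+LM8 mice. For Mmp19 the closest were Igkc (0.08), the constant region of the kappa light chain, then Tmem26 (0.13) and Atp6v0d2 (0.14), a proton pump subunit that is also among the alveolar macrophage markers.

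Mmp2 and Mmp14 work as a pair. Mmp14 is anchored in the cell membrane and, with Timp2, activates the precursor of the gelatinase Mmp2. The FPKM of Mmp14 was 10.0, 7.67 and 11.2 in CON, 24.6, 21.5 and 19.9 in IL-33 and 8.49, 11.1 and 12.4 in IL-33+LM8 mice. IL-33 mice stood apart from both other groups, which overlapped. The gene rose with IL-33 by a log2 fold change of 1.19 (SE 0.14, edgeR adjusted p = 0.00034) and with LM8 it fell by 1.04 (SE 0.14, edgeR adjusted p = 0.0019), close to the minimum for a call. That second call was lost without IL-33 replicate 1 (log2 fold change -0.95), without IL-33+LM8 replicate 1 (-0.90) and in limma on log2(FPKM + 1) (-0.99), each time because the size went under 1. Against CON, the IL-33+LM8 value was 0.16 (SE 0.18, edgeR adjusted p = 0.52).

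Mmp2 had an FPKM of 33.8, 28.03 and 35.4 in CON, 57.5, 59.5 and 55.7 in IL-33 and 22.3, 26.96 and 24.9 in IL-33+LM8 mice. IL-33 mice were highest, and all inhibitor-treated mice lay below every CON mouse. The log2 fold change in IL-33 against CON was 0.83 (SE 0.09, edgeR adjusted p = 0.0002), which is under the minimum for a call. With LM8 the gene fell by 1.22 on the log2 scale (SE 0.08, edgeR adjusted p = 0.00011), or 2.33-fold. IL-33+LM8 against CON gave -0.38 (SE 0.11, edgeR adjusted p = 0.038), again not called.

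Genes with the closest pattern to Mmp2 were Col5a1 (root mean square difference 0.10), a fibrillar collagen chain, Gm11223 (0.12) and Cthrc1 (0.16), a collagen triple helix repeat protein. The closest to Mmp14 were Lox (0.13), the enzyme that cross-links collagen and elastin, Smim24 (0.15) and Prss35 (0.16). Lox had 15.7 ± 3.93 FPKM in CON, 34.8 ± 1.05 in IL-33 and 19.7 ± 2.58 in IL-33+LM8 mice. The fibroblast markers gave no uniform direction. Of 6, Col1a2 rose with IL-33 and fell with LM8, Pdgfra and Scara5 fell with IL-33, and the others were not called in these comparisons. Their summed FPKM was 169, 162 and 165 in CON, 166, 173 and 161 in IL-33 and 148, 142 and 142 in IL-33+LM8 mice, and Col1a2 was the most abundant (mean FPKM 52.4).

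Mmp8 and Mmp9 showed another pattern. Mmp8 is the neutrophil collagenase, stored in neutrophil granules and able to cut fibrillar collagen, and Mmp9 is a gelatinase of neutrophils and macrophages. Mmp8 had an FPKM of 0.604, 1.56 and 1.04 in CON, 6.97, 5.50 and 6.25 in IL-33 and 43.3, 32.3 and 38.1 in IL-33+LM8 mice. It rose stepwise over the groups with no overlap. The log2 fold change was 2.54 (SE 0.32, edgeR adjusted p = 0.00045) in IL-33 against CON and 2.60 (SE 0.13, edgeR adjusted p = 4.9e-05) in IL-33+LM8 against IL-33. Against CON, inhibitor-treated lungs had a log2 fold change of 5.16 (SE 0.32, edgeR adjusted p = 8.6e-05). In CON mice the level rested on 96 to 244 counts, and on 5065 to 8703 in IL-33+LM8 mice.

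Mmp9 had an FPKM of 2.16, 1.88 and 2.12 in CON, 5.76, 7.55 and 5.35 in IL-33 and 25.1, 20.4 and 22.6 in IL-33+LM8 mice. Here too the 3 groups lay apart, in the same order. The rise with IL-33 was 1.59 on the log2 scale (SE 0.15, edgeR adjusted p = 0.00012), and that with LM8 over IL-33 was 1.86 (SE 0.14, edgeR adjusted p = 0.0002). IL-33+LM8 against CON gave 3.47 (SE 0.11, edgeR adjusted p = 9.3e-06).

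Neutrophil markers moved with both genes. All 6 markers rose with IL-33, 4 of 6 rose further in IL-33+LM8 against IL-33, and all 6 were higher in IL-33+LM8 than in CON mice. Their summed FPKM was 32.3, 30.8 and 25.3 in CON, 181, 205 and 194 in IL-33 and 976, 838 and 849.6 in IL-33+LM8 mice, with no overlap between groups. The most abundant was S100a9 (mean FPKM 190.5), an alarmin of the neutrophil cytoplasm. Ly6g, a surface marker restricted to neutrophils, had 0 to 9 counts in CON, 27 to 48 in IL-33 and 527 to 936 in IL-33+LM8 mice. Eosinophil markers did not follow. Their summed FPKM was 4.07, 3.82 and 4.45 in CON, 40.3, 43.2 and 45.7 in IL-33 and 8.86, 9.09 and 8.42 in IL-33+LM8 mice, with Prg2 the most abundant (mean FPKM 7.87) and Epx at 0 counts in all CON mice. Of the 5 eosinophil markers tested, all rose with IL-33 and all fell with LM8. The part of neutrophils in the levels of Mmp8 and Mmp9 was not tested.

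**Figure D3:**
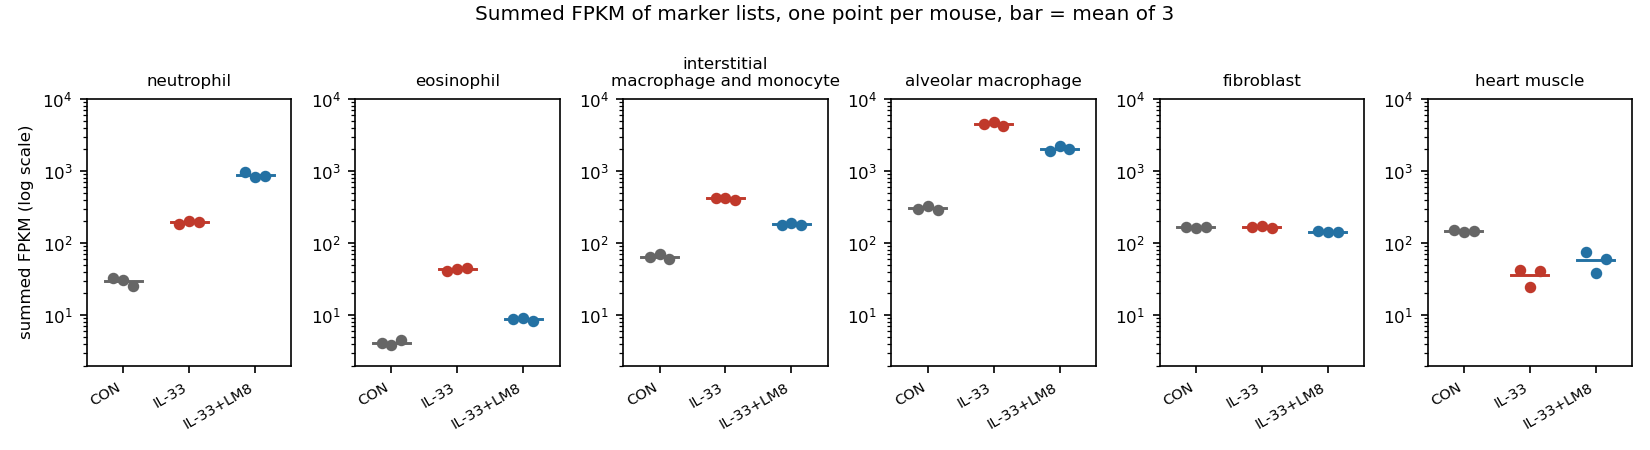
Summed FPKM of the genes in 6 marker lists on a log axis, with a point for each mouse and a bar for the mean of 3 mice per group. The neutrophil sum is highest in IL-33+LM8 mice (mean 888), the eosinophil sum and both macrophage sums are highest in IL-33 mice, and the heart muscle sum is highest in CON mice (148).

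By the same measure of likeness, the genes closest to Mmp8 were Slfn4 (0.30), Ngp (0.35) and S100a8 (0.46). Ngp, a neutrophil granule protein, had 2.16 ± 0.223 FPKM in CON, 7.11 ± 1.16 in IL-33 and 46.2 ± 3.96 in IL-33+LM8 mice. S100a8, the partner of S100a9 and one of the neutrophil markers, reached 134 ± 6.77 in IL-33+LM8 mice. Closest to Mmp9 were Asprv1 (0.26), Clec4d (0.28), a C-type lectin receptor, and Il1b (0.31), a cytokine that signals through MyD88 and is also on the list of MMP-inducing cytokines described further on.

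Mmp3 (stromelysin, which cuts many matrix proteins and activates other MMPs) was not called in any comparison. Its FPKM was 17.9, 16.5 and 15.7 in CON, 13.7, 12.9 and 12.7 in IL-33 and 14.9, 28.5 and 24.6 in IL-33+LM8 mice. IL-33 mice were the lowest, and inhibitor-treated mice were spread widely, with replicate 1 near the CON level. The log2 fold change was -0.35 (SE 0.08, edgeR adjusted p = 0.0078) in IL-33 against CON and 0.79 (SE 0.22, edgeR adjusted p = 0.033) in IL-33+LM8 against IL-33. Without IL-33+LM8 replicate 1 the latter passed the call, at 1.02 (edgeR adjusted p = 0.00082); over all alternatives its adjusted p ran from 0.00034 to 0.098. In GENCODE M21 transcripts 8.39% of the stretches of 50 bases of Mmp3 also occur in another gene, among them Mmp10, whose mean FPKM was at most 0.61 in any group.

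The inhibitors divided too. Timp1, a secreted inhibitor that many cell types induce in inflammation and repair, had an FPKM of 3.69, 2.20 and 2.74 in CON, 109, 125 and 125 in IL-33 and 45.1, 141 and 85.5 in IL-33+LM8 mice. Both treated groups lay far above CON, and the inhibitor-treated mice spanned the whole range of the IL-33 mice. The gene rose with IL-33 by a log2 fold change of 5.37 (SE 0.19, edgeR adjusted p = 1.9e-06) and was higher in IL-33+LM8 than in CON mice by 4.98 (SE 0.46, edgeR adjusted p = 0.0004). IL-33+LM8 against IL-33 gave -0.40 (SE 0.35, edgeR adjusted p = 0.46), with an exact two-sided permutation p of 0.4 on log2(FPKM + 1). That value rested on single mice, at -0.08 without IL-33+LM8 replicate 1, the lowest, and -0.88 (edgeR adjusted p = 0.049) without replicate 2, the highest, with adjusted p from 0.049 to 0.83 over all alternatives. An experiment with 3 mice against 3 cannot give an exact two-sided permutation p under 0.1, which is what each gene without overlap had.

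Timp1 lies inside Syn1 on the opposite strand. The counts of Syn1, a gene of nerve terminals, were 59 to 569 in CON, 512 to 1092 in IL-33 and 213 to 355 in IL-33+LM8 mice, against 6232 to 6977 for Timp1 in IL-33 mice. In CON mice Timp1 had 127 to 214 counts, and the part of the overlap in the level of Timp1 was not tested. None of the 50-base stretches of Timp1 transcripts occurs in another gene. The closest genes by pattern were Chia1 (0.33), an acidic chitinase, Ccl11 (0.44), the chemokine eotaxin, and Slc26a4 (0.53), an anion exchanger. Chia1 had 27.1 ± 1.06 FPKM in CON, 566 ± 43.4 in IL-33 and 543 ± 188 in IL-33+LM8 mice, so its spread in the last group was wide like that of Timp1.

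Timp2 and Timp3 were the abundant inhibitors of CON lungs, and neither was called. Timp3, which unlike the others binds to the matrix, had an FPKM of 152, 153 and 152 in CON, 87.6, 77.9 and 89.5 in IL-33 and 144, 109 and 127 in IL-33+LM8 mice. All IL-33 mice were lowest, without overlap with either group. The log2 fold change was -0.84 (SE 0.07, edgeR adjusted p = 4.6e-05) in IL-33 against CON, or 1.79-fold lower, and 0.58 (SE 0.11, edgeR adjusted p = 0.0069) in IL-33+LM8 against IL-33. Timp3 lies inside Syn3 on the opposite strand, whose counts were 63 to 180 over all mice, against 39744 to 97312 for Timp3. Of the 50-base stretches of Timp3 transcripts, 21.4% also occur in another gene, with 569 such genes. For Mmp12 the share was 2.53% and for Mmp14 1.15%.

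Timp2, a broad inhibitor that also takes part in the activation of Mmp2, had an FPKM of 128, 119 and 157 in CON, 116, 86.7 and 79.7 in IL-33 and 93.9, 86.7 and 94.6 in IL-33+LM8 mice. The highest value in each group came from the mouse with the largest total count. The log2 fold change was -0.52 (SE 0.15, edgeR adjusted p = 0.024) in IL-33 against CON and -0.54 (SE 0.10, edgeR adjusted p = 0.0087) in IL-33+LM8 against CON. Between the IL-33 groups it was -0.03 (SE 0.13, edgeR adjusted p = 0.88), and without IL-33 replicate 1 it turned to 0.14. The summed levels of endothelial and of lung epithelial markers, which mark cells of the lung wall, were lowest in IL-33 mice, though most of the markers were not called. The summed FPKM of 4 endothelial markers was 565 ± 41.9 in CON, 360.1 ± 16.8 in IL-33 and 537 ± 9.22 in IL-33+LM8 mice (Cldn5 most abundant), and 2 of 4 fell with IL-33. For 6 epithelial markers it was 33502 ± 1457, 14367 ± 618 and 27128 ± 1212, with Scgb1a1 the largest part, and 2 of 6 fell with IL-33. Neither list had a called gene between the IL-33 groups. The sums for smooth muscle (4 markers, Acta2 most abundant) were 157 ± 11.5, 227 ± 4.43 and 266 ± 17.4, and for fat (3 markers, Adipoq most abundant) 6.16 ± 4.46, 2.83 ± 1.10 and 2.37 ± 1.298. The part of these cells in the levels of the inhibitors was not tested.

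Of 16 other MMP genes, 14 had a row and 7 passed the filter on low values. With IL-33, Mmp13 and Mmp25 rose and Mmp28 and Mmp15 fell. Mmp13, a collagenase, went from 0.441 ± 0.0293 FPKM in CON to 5.64 ± 0.482 in IL-33 and back to 0.548 ± 0.0720 in IL-33+LM8 mice, with a log2 fold change of 3.66 (SE 0.14, edgeR adjusted p = 2.1e-06) and then -3.35 (SE 0.16, edgeR adjusted p = 4.5e-05). No other gene of the 7 was called between both IL-33 groups. Mmp25, a membrane-anchored protease of leukocytes, had 0.383 ± 0.0883, 4.41 ± 0.470 and 2.40 ± 0.502 FPKM, and was the only one of the 7 called in IL-33+LM8 against CON (log2 fold change 2.65, SE 0.24, edgeR adjusted p = 0.00038). Mmp28, made by epithelium, had 14.1 ± 1.87, 4.78 ± 0.273 and 8.33 ± 0.343 FPKM, with a log2 fold change of -1.56 (SE 0.10, edgeR adjusted p = 1.9e-05) in IL-33 against CON. Mmp1a and Mmp7 were not analysed here.

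Other inhibitors were few. Reck, a membrane-anchored inhibitor of several MMPs, was the only one of 3 that passed the filter. It fell with IL-33, from 20.6 ± 1.06 FPKM in CON to 7.65 ± 0.505 (log2 fold change -1.43, SE 0.07, edgeR adjusted p = 5.8e-06). In IL-33+LM8 mice it was at 13.8 ± 1.70, not called against either group. Timp4, which lies inside Syn2, was at or below 0.505 FPKM in every group mean, and the mean FPKM of Syn2 was 1.59, 1.26 and 0.808 in CON, IL-33 and IL-33+LM8 mice.

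MMP precursors can be activated by plasmin, and 8 genes of plasminogen activation were tested. Serpinb2 and Plau rose with IL-33 and were still higher in IL-33+LM8 than in CON mice, and none of the 8 was called between the IL-33 groups. Plg (plasminogen) and Serpinf2 (the plasmin inhibitor alpha 2-antiplasmin) split by library instead. Plg had 0, 4 and 7 counts in the mouse with the largest total of CON, IL-33 and IL-33+LM8, against 482 to 1108 in the other 6 mice, and Serpinf2 had 25, 25 and 31 against 246 to 477. Plau, the urokinase protease, had 3.07 ± 0.404 FPKM in CON, 9.57 ± 0.609 in IL-33 and 7.25 ± 1.69 in IL-33+LM8 mice. Serpinb2, an inhibitor of urokinase made by macrophages, had 0.173 ± 0.0944, 3.57 ± 0.477 and 2.00 ± 0.0640. Of 5 tested genes of MMP activation and clearance, Cd44, a hyaluronan receptor that can hold Mmp9 at the cell surface, rose with IL-33 (log2 fold change 1.34, SE 0.06, edgeR adjusted p = 2.9e-06). Prtn3, a neutrophil serine protease, was the only one called in IL-33+LM8 against CON (1.59, SE 0.35, edgeR adjusted p = 0.015), a call lost without CON replicate 2 or IL-33+LM8 replicate 2 (edgeR adjusted p = 0.05 and 0.051, within 0.0011 to 0.051 over all alternatives) and, on size alone, in limma on log2(FPKM + 1) (0.59).

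ADAM proteases, which shed proteins from the cell surface and which Timp3 can also inhibit, gave 2 called genes of 9 with IL-33, both higher. Adam8, a sheddase of leukocytes, had 5.75 ± 0.414 FPKM in CON, 63.2 ± 2.33 in IL-33 and 25.0 ± 1.19 in IL-33+LM8 mice, and was called in all 3 comparisons. Adam12, a sheddase of mesenchymal cells, had 0.660 ± 0.0436, 2.23 ± 0.137 and 0.790 ± 0.104 and fell back with LM8 (log2 fold change -1.50, SE 0.12, edgeR adjusted p = 0.00024). Among 9 ADAMTS genes, secreted proteases of proteoglycans and procollagens, 2 rose and 2 fell with IL-33. Adamts12 rose by 1.67 on the log2 scale (SE 0.14, edgeR adjusted p = 6.3e-05) and with LM8 it fell by 2.18 (SE 0.12, edgeR adjusted p = 6.5e-05), the only ADAMTS gene called there. Adamts4, an aggrecanase, rose by 1.41 (SE 0.31, edgeR adjusted p = 0.0071) at levels of at most 1.47 FPKM in each group mean. It was also the only one called in IL-33+LM8 against CON (1.70, SE 0.43, edgeR adjusted p = 0.023), but not without CON replicate 2 (1.68) or 3 (1.43) or IL-33+LM8 replicate 2 (1.36) or 3 (1.70). Adamts5 fell with IL-33, with a log2 fold change of -1.03 (SE 0.09, edgeR adjusted p = 6.6e-05), which was -0.98 without IL-33 replicate 3 and -0.97 in limma on log2(FPKM + 0.1), both under the minimum for a call.

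The matrix proteins that these enzymes cut were followed through 9 genes, with collagens left out. Tnc, Vcan and Fn1 rose with IL-33, and the other 6 were not called. Fn1 (fibronectin) had 58.0 ± 12.5 FPKM in CON, 192 ± 0.166 in IL-33 and 80.9 ± 5.58 in IL-33+LM8 mice, and Tnc (tenascin C, a protein of wound matrix) had 2.79 ± 0.980, 13.4 ± 1.15 and 4.55 ± 1.27. Both fell with LM8, Fn1 with a log2 fold change of -1.25 (SE 0.07, edgeR adjusted p = 8.3e-05) and Tnc with -1.55 (SE 0.20, edgeR adjusted p = 0.0013). Vcan, the proteoglycan versican, was high in both treated groups (3.24 ± 0.119 and 3.06 ± 0.673, against 0.902 ± 0.146 in CON). Eln, the precursor of elastin and the substrate from which macrophage elastase has its name, went from 54.4 ± 16.5 in CON through 35.4 ± 4.26 in IL-33 to 18.0 ± 1.08 in IL-33+LM8 mice. It was called lower only in IL-33+LM8 against CON (log2 fold change -1.58, SE 0.21, edgeR adjusted p = 0.0019).

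Of 8 cytokines known to induce MMP or TIMP genes, 7 were tested and 5 rose with IL-33. Il6 had 0.139 ± 0.0115 FPKM in CON, 2.60 ± 0.624 in IL-33 and 1.11 ± 0.210 in IL-33+LM8 mice, and fell with LM8 (log2 fold change -1.22, SE 0.24, edgeR adjusted p = 0.0086). Osm (oncostatin M, a strong inducer of Timp1 in fibroblasts) had 0.557 ± 0.0559, 2.95 ± 0.530 and 2.87 ± 0.141, so both treated groups were alike in level. Il13, the type 2 cytokine, had 0, 4 and 0 counts in CON, 185, 181 and 204 in IL-33 and 79, 261 and 161 in IL-33+LM8 mice, and was called higher in both against CON. No fold is given for it, since the CON level rests on 4 counts. In IL-33+LM8 mice the lowest and the highest count came from replicates 1 and 2, as for Timp1. Il1b and Tnf rose with LM8; Tnf was not called in IL-33 against CON (edgeR adjusted p = 0.064). Il1b had 2.70 ± 0.480, 9.51 ± 1.05 and 20.9 ± 0.753 FPKM, with a log2 fold change of 1.14 (SE 0.09, edgeR adjusted p = 0.00023) in IL-33+LM8 against IL-33. Tnf had 0.286 ± 0.189, 0.681 ± 0.0492 and 1.73 ± 0.194, with a log2 fold change of 1.34 (SE 0.21, edgeR adjusted p = 0.0032) there.

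Of the proteases, 3 share a position. Mmp12, Mmp3 and Mmp8 lie in a row of 8 MMP genes that the deposited table holds on chromosome 9. These span 402467 bases from Mmp13 to Mmp20. The table places Mmp12 at chr9:7344381-7369499, Mmp3 at chr9:7445822-7455975 and Mmp8 at chr9:7558457-7568486, all on the + strand. The neighbours did not move alike. When LM8 was added, Mmp13 and Mmp12 fell, Mmp8 rose and Mmp3 was not called, while Mmp1b, Mmp10, Mmp27 and Mmp20 were too low to be tested. The other proteases lie apart, Mmp2 at chr8:93553919-93580048, Mmp9 at chr2:164782700-164797770, Mmp14 at chr14:54669069-54678722 and Mmp19 at chr10:128626779-128636693, all on the + strand. Timp1 is at chrX:20736405-20740974 and Timp3 at chr10:86136236-86185370 on the + strand, and Timp2 at chr11:118191895-118246566 on the - strand, where it overlaps Cep295nl (at most 0.485 FPKM in a group mean). The submitters' processing notes name mm10, but 3 of these 10 starts lie within 5 bases of those of GENCODE M21 on the matching assembly GRCm38, as do 2.61% of the 32643 genes that both hold, so the build of these positions is not settled.

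The bases just upstream of the transcription start were searched for motifs of factors that inflammatory signals activate. RefSeq sequences on GRCm38.p6 were at hand for 7 of the 10 genes, with 2 starts for Mmp12; Mmp2, Mmp9 and Mmp19 were not among them. In the 250 bases before each start, on both strands, the AP-1 motif TGANTCA was found in 2 of the 8 promoters, the downstream start of Mmp12 and that of Mmp3, both as TGAGTCA, against 6.75% of all 32851 promoters. It lay 44 bases before the start in Mmp12 and 46 before it in Mmp3. A STAT6-type motif (TTCNNNNGAA, found in 5.85% of all promoters), a STAT motif (TTCNNNGAA, 7.02%) and an NF-kB-type motif (GGGNNNTTCC, 4.65%) were found in none of the 8. A match is a description of letters and not a bound site, and a missing match says only that these letters are not in this window. The windows of both promoters with a match are shown beside that of Timp1, which with Mmp12 had the largest change with IL-33; they run 5′ to 3′ on the + strand up to the base before the start, at chr9:7347124-7347373, chr9:7445572-7445821 and chrX:20869916-20870165, and capitals mark the AP-1 motif.
Mmp12: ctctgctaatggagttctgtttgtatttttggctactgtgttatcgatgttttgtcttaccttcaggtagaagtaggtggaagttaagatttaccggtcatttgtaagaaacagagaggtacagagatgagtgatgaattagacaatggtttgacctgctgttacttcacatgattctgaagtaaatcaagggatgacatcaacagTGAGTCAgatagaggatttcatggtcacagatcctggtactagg
Mmp3: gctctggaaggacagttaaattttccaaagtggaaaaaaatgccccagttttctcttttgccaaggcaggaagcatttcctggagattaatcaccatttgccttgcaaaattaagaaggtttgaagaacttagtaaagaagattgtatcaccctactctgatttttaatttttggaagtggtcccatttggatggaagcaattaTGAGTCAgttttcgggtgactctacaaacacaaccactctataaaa
Timp1: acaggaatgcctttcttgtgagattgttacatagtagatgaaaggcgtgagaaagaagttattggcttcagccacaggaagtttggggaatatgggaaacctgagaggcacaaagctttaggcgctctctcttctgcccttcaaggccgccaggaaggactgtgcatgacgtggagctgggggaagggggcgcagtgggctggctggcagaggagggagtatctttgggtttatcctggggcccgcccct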

How the data were processed

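Lung RNA of 9 mice in 3 groups was sequenced in paired ends on a NovaSeq instrument. The authors deposited a table with a raw read count and an FPKM value per gene and mouse, made by their sequencing provider; per the labels, counts are not normalized and FPKM is scaled to gene length and library size. The submitters' processing notes name HISAT2 2.0, StringTie 1.3.0, Bowtie 0.12.2 and mm10, with no roles; the counting program and its use of strand are not given in the sources used here. Of the 34638 entries, 281 share a symbol with another; none of the 10 genes does.

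Counts were tested with edgeR 4.0.16 (R 4.3.3, TMM, quasi-likelihood), and each fit held the 6 mice of its comparison. Genes entered at a mean FPKM of 0.5 or more (all 9 mice) with reads in at least 1 of those 6. Calls needed an adjusted p under 0.05 (Benjamini-Hochberg, all genes tested) and a change of at least 1 on the log2 scale. The standard error is the log2 fold change divided by the square root of F. Folds are ratios of mean FPKM. Alternatives used median-of-ratios factors, DESeq2 1.42.0, other filters, no minimum fold change, limma 3.58.1 on log2(FPKM + 1) or log2(FPKM + 0.1), a fit of all 9 mice, the replicate number as a block, and 1 mouse left out at a time. The fits were tested on simulated data.

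The genes named are the 10, in every comparison; up to 3 called genes per comparison with the largest absolute log2 fold change from each of 8 lists (other MMPs, other inhibitors, plasminogen activation, MMP activation and clearance, ADAM, ADAMTS, matrix proteins, cytokines); the 3 genes of mean FPKM of at least 1 closest in pattern to each called gene (2 of these for Mmp12); Syn1, Syn2 and Syn3; and from marker lists the most abundant genes and those near 0. Mmp15, Marco, Cx3cr1, Tmem198b, Mmp10, Cep295nl, Plg, Serpinf2 and single fibroblast markers were named after their values were seen. The genes and lists were chosen with earlier results of these data known. Within groups, differences between libraries were 21.9 times sampling variance or more, so no library was a copy of another. Replicate numbers are shared by the groups. In IL-33+LM8 against CON same-numbered mice deviated together (correlations across genes 0.31, 0.32 and 0.67), a hint from the data only, since no label says what a number marks; in the other comparisons at least 1 of the 3 pairs had a negative correlation.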

Additional observations from a re-analysis of the deposited data

How the results depend on the processing

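The calls of the 10 genes kept their direction and their side of the threshold under all alternatives with a minimum fold change, apart from those of Mmp14 and Mmp3 in IL-33+LM8 against IL-33 given above; the value of Timp2 there, which was not called, changed sign to 0.14 without IL-33 replicate 1 and ranged down to -0.13 with other mice left out. With a replicate block 6, 6 and 4 of the 10 were called in IL-33 against CON, IL-33+LM8 against IL-33 and IL-33+LM8 against CON. These counts were as without it, and 2841, 836 and 1364 of all genes were called. The block ended no call of the 10 or of the genes chosen by size from the 8 lists. It goes by replicate number. The mice with the largest totals are replicate 3 in CON and IL-33+LM8 but replicate 1 in IL-33. In comparisons that hold the IL-33 group, the block therefore cannot take up what these mice share. Other named genes, among them the markers, were not followed through the alternatives. With no minimum fold change, which by construction adds smaller changes, 10, 8 and 7 of the 10 passed (of which Mmp3 and Timp2, Mmp3, and Mmp2 and Mmp19 did not in every alternative fit), and 9193, 4459 and 4997 of all genes. The number of all genes called was lower with a mean FPKM of at least 5 (1176, 304 and 469), where fewer genes were tested. It was also lower in limma on log2(FPKM + 1) (1741, 439 and 588), which shrinks changes of low genes. Among the genes chosen by size from the 8 lists, this limma fit took some below the minimum in at least 1 comparison. They were Adam12, Adamts12, Adamts4, Adamts5, Il6, Tnf and Prtn3. No scaling moved the median log2 fold change of all genes by over 0.1. At 3 mice a group, the design limits genes with a wide spread such as Timp1 and Mmp3 in IL-33+LM8 mice; the fewest counts of the 10 were those of Mmp8 (96 to 244) and Timp1 (127 to 214) in CON mice.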
